A study of Mus musculus with 8 samples.

Results

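Immediate early genes are switched on within minutes when a cell receives a growth factor, a hormone, nervous input or a mechanical insult, without the need for new protein. Most are transcribed from promoters bound by factors that the MAP kinase and cAMP pathways activate, and their mRNAs are short-lived. In brown fat, noradrenaline from sympathetic nerves acts through cAMP and can induce Fos family genes, and the handling of an animal or of tissue before freezing can do the same in many organs.

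The genes described here are 10 listed immediate early genes, Fos, Fosb, Jun, Junb, Jund, Egr1, Atf3, Ier2, Ier3 and Myc, taken by symbol from the mRNA table. All 10 are among its 22552 genes, and all 10 passed the filter used below, a mean over both genotypes of at least 1 FPKM, which 11597 genes passed. Their products fall into 6 subunits of the AP-1 transcription factor and 4 other proteins. AP-1 is a dimer of basic leucine zipper (bZIP) proteins. Fos and FosB pair mainly with Jun proteins. Jun, JunB and JunD can pair with one another or with a Fos protein, and ATF3 pairs with Jun proteins or with itself. Egr1 is a zinc finger factor, Myc drives growth as a dimer with Max, and Ier2 and Ier3 encode small proteins of the early response, Ier3 with a known role in cell survival.

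The tissue was brown fat, the heat-producing fat, of mice aged 2 months. Null mice were homozygous for a deletion of mir-193b (genotype -/-), which the series title gives as loss of miRNAs 193b and 365-1, and WT mice were +/+. Both had the mixed background 129SV::FVB/N::C57BL/6. The floxed allele was recombined by MMTV-Cre in the mothers, and that transgene was then bred out, so that the deletion was inherited rather than limited to fat. Neither the sex of the mice nor how the tissue was handled before RNA extraction is stated in the labels. Per the labels, 3 Null and 3 WT samples gave poly(A) mRNA libraries and 1 Null and 1 WT sample gave microRNA libraries.

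The authors deposited 1 mRNA column per genotype, so each gene has a single value in what is called here the Null pool and the WT pool. The unit is FPKM, fragments scaled to transcript length and to the mapped fragments of the library, which allows levels of different genes to be compared. There is no spread between mice, no test could be made, and the depth of the libraries is unknown. Every difference below compares a pair of pooled values, and with bulk tissue fewer cells of a type and less RNA per cell cannot be told apart. The log2 ratio is log2((Null + 1)/(WT + 1)), which understates differences of genes at few FPKM. Past 2-fold, unless another scale is named, means past 2-fold on this scale.

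The genotype labels were checked in the microRNA libraries. miR-193b-3p, the main product of the deleted gene, had 11.5 RPM in the Null library and 3705 RPM in the WT library, so that Null held 0.311% of the WT level. miR-365-1-5p had 0.0821 RPM in Null and 11.8 RPM in WT. miR-365-3p, which is also made from mir-365-2, was not lost: it had 798 RPM in Null and 1442 RPM in WT, 55.3% of WT. The miR-193b-3p sequence is shown because its loss defines the groups, with the seed (bases 2 to 8) in capitals, from RefSeq on GRCm38.p6 (chr16:13449570-13449591, plus strand).
miR-193b-3p: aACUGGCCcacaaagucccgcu

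Brown fat was recognisable in both pools: Ucp1, the uncoupling protein, had 2487 FPKM in the Null pool and 3016 FPKM in the WT pool, and all 7 brown fat markers passed the filter. They did not differ in one direction: 3 were higher and 4 lower in Null, with the elongase gene Elovl3 at 17.5 FPKM in Null and 88.3 FPKM in WT, and the respiratory chain gene Cox7a1 at 5343 FPKM in Null and 2634 FPKM in WT. Cox8b, another subunit gene of the chain, had 11163 FPKM in Null and 6407 FPKM in WT.

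The promoters of the members are shown next for the Jun and Fos genes at the top of the comparison and for the 2 members at its bottom. RefSeq promoter sequences (GRCm38.p6) were matched by symbol for 7 of the 10 members, and the 250 bases before the annotated start are used, 5′ to 3′ on the gene's strand. Capitals mark the ATF/CREB core TGACG on either strand, the AP-1 site TGANTCA, the Jun and ATF site TGANNTCA and the TATA motif TATAAA. The serum response element (CArG box) was searched too and was in none of the 7. The window and the 7 genes limit this, since such elements can lie farther upstream and Egr1, Ier2 and Myc are not among the 7.

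Jun (chr4:95052223-95052472, minus strand): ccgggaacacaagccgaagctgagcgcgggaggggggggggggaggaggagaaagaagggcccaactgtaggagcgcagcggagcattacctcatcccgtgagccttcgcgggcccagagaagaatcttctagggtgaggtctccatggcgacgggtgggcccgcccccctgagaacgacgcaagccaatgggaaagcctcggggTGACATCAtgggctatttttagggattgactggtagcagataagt
Junb (chr8:84978749-84978998, minus strand): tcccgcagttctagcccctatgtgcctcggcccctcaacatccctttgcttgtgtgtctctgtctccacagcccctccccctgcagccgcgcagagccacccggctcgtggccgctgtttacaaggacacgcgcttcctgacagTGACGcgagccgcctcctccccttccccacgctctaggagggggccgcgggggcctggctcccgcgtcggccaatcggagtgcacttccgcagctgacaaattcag
Fos (chr12:85473640-85473889, plus strand): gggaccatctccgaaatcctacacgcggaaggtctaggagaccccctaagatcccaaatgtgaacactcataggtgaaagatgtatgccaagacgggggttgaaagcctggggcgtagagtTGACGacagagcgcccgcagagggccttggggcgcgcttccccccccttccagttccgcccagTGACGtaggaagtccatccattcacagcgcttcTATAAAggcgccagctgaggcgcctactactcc
Atf3 (chr1:191183334-191183583, minus strand): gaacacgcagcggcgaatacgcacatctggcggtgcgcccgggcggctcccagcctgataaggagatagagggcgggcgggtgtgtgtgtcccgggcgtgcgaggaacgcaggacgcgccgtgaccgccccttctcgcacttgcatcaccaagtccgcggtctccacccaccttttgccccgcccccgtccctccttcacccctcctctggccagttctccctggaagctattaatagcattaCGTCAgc
Ier3 (chr17:35821463-35821712, plus strand): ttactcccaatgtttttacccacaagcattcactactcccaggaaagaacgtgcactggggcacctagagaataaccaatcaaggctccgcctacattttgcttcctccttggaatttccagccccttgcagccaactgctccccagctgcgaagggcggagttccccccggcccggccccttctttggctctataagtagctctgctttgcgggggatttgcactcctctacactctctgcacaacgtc

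The ATF/CREB core was in 4 of the 7 member windows (Fos, Fosb, Junb and Atf3), and in 17.8% of the 32851 promoters of the table. Fos held it at 2 places, starting 129 and 66 bases before the start, the second 33 bases upstream of its TATA motif. Jun held the TGACATCA site 45 bases before its start, and a TGANNTCA site was in 2 of the 7 windows and in 11.9% of all promoters. TGANTCA was in none of the 7 and in 6.75% of all, and the CArG box was in 1.47% of all. The motifs did not sort the members by genotype difference: Atf3, lower in Null, held the core as Fos and Junb did, and Ier3 held none of the motifs.

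Among the AP-1 members, Jun and Junb were the ones over 2-fold higher in the Null pool. Jun, the founding subunit, had 43.8 FPKM in the Null pool and 19.7 FPKM in the WT pool, a log2 ratio of 1.12. Junb, a Jun relative with weaker activation of many targets, had 36.8 FPKM in the Null pool and 16.4 FPKM in the WT pool, also a log2 ratio of 1.12. These were the 2 highest members in the Null pool, and in the WT pool Jun was the third and Junb the fifth.

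Fos followed with a smaller difference in the same direction. It had 32.7 FPKM in the Null pool and 18.8 FPKM in the WT pool, a ratio of 1.74 and a log2 ratio of 0.77. Its paralogue Fosb was scarce in both pools, with 2.53 FPKM in Null and 2.05 FPKM in WT (log2 ratio 0.21).

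Jund and Atf3 lay on the other side. Jund, the Jun gene that most cells express without a stimulus, had 26.5 FPKM in the Null pool and 32.0 FPKM in the WT pool, a log2 ratio of -0.26. Atf3, which stress pathways induce and which represses many AP-1 targets as a homodimer, had 2.04 FPKM in the Null pool and 3.08 FPKM in the WT pool, a log2 ratio of -0.42.

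The 4 members outside AP-1 split in the same way. Myc had the highest ratio of all 10, with 6.38 FPKM in the Null pool and 1.99 FPKM in the WT pool, a ratio of 3.21 and a log2 ratio of 1.30. Ier2 had 33.7 FPKM in the Null pool and 14.1 FPKM in the WT pool, a log2 ratio of 1.20. Egr1 and Ier3 were lower in Null.

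Egr1, which usually follows the same stimuli as Fos, had 21.3 FPKM in the Null pool and 25.4 FPKM in the WT pool, a log2 ratio of -0.24. Egr1 was thus at 0.651 times the FPKM of Fos in the Null pool and at 1.35 times in the WT pool, and the order of these 2 genes differed between the pools. Ier3 had the lowest ratio of the members, with 7.21 FPKM in the Null pool and 11.4 FPKM in the WT pool, a log2 ratio of -0.60.

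**Figure D1:**
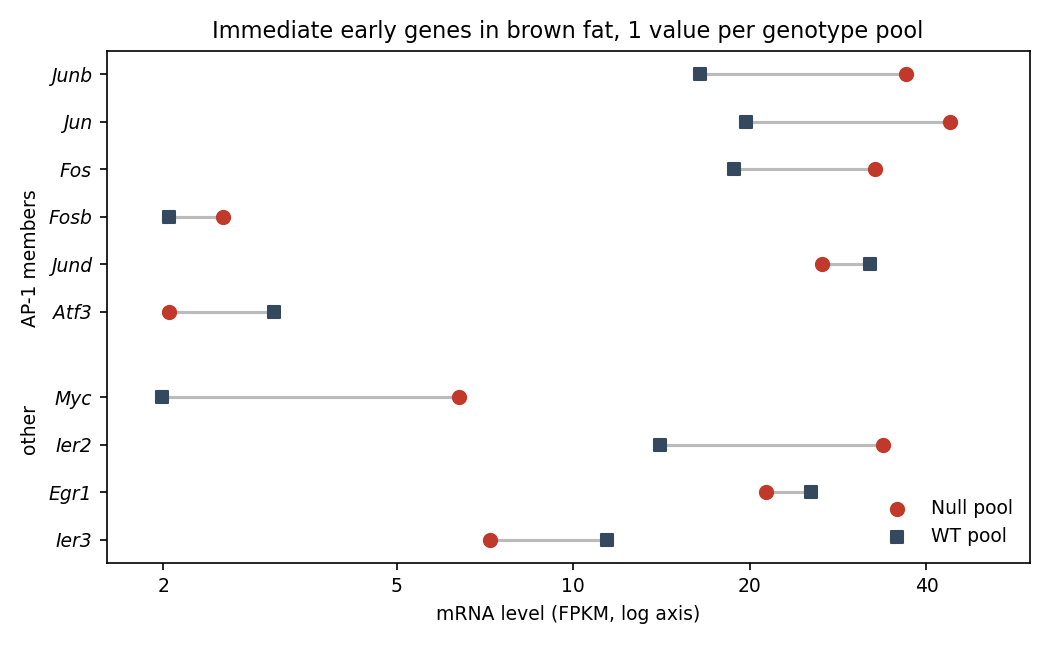
mRNA level in FPKM (log axis) of the 6 AP-1 members (upper group) and the 4 other members (lower group), with circles for the Null pool and squares for the WT pool, 1 value each. The Null value lies to the right for Junb, Jun, Fos, Fosb, Myc and Ier2, and to the left for Jund, Atf3, Egr1 and Ier3.

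By 2-fold or more, 4 of the 10 members were higher in the Null pool, against 2.17% of all 11597 genes, and 0 were lower, against 1.65% of all genes. By 1.5-fold or more, 5 were higher (7.87% of all genes) and 1 was lower, Ier3 (6.75% of all genes). These counts describe 10 genes of 1 pair of pools, have no test, and the genes are induced together, so that they are not independent. The members were also chosen with earlier results of these data known, so the excess over all genes is no evidence about immediate early genes as a class. Among the 11597 genes, 120 had a higher ratio than Myc, 141 than Ier2, 175 than Junb and 178 than Jun. Fos had 470 genes above it, and 736 genes had a lower ratio than Ier3.

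Both AP-1 subunits and other members held genes with high and with low ratios. Of the 6 AP-1 members, 4 were higher and 2 lower in Null, with 2 past 2-fold and a median log2 ratio of 0.49. Of the 4 others, 2 were higher and 2 lower, with 2 past 2-fold and a median of 0.48. The median over all genes was 0.01. Both medians lie between high and low ratios and describe no single gene well. They depend on the filter: among the 7 members with a mean of at least 5 FPKM, where Myc, Fosb and Atf3 drop out, the median was 0.94 for the AP-1 members and -0.24 for the others.

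The order of the members by level also differed between the pools. In the Null pool the order was Jun, Junb, Ier2, Fos, Jund, Egr1, Ier3, Myc, Fosb and Atf3, and the first 4 of these lay between 32.7 and 43.8 FPKM. In the WT pool it was Jund, Egr1, Jun, Fos, Junb, Ier2, Ier3, Atf3, Fosb and Myc. Which neighbours in these orders would differ beyond the spread between mice cannot be told from pooled values. Jun stood at percentile 84.4 of the genes measured by level in the Null pool and at percentile 69.4 in the WT pool, and Myc at percentiles 37.5 in Null and 11.2 in WT. In the Null pool Jun, Junb, Ier2, Fos and Jund stood at percentiles 75.7 to 84.4, while Fosb and Atf3 stood at 14.9 and 11.3.

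Among the Jun genes the balance differed as well as the sum. Jun, Junb and Jund together had 107 FPKM in the Null pool and 68.1 FPKM in the WT pool, 1.57 times as much in Null. Jund made up 24.7% of that sum in the Null pool and 47.0% in the WT pool, where it was the most abundant Jun mRNA. Jun made up 40.9% of the sum in Null and 28.9% in WT, and Junb 34.4% in Null and 24.1% in WT.

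The Fos genes showed the same kind of difference with a smaller sum. Fos, Fosb and the relatives Fosl1 and Fosl2 together had 40.4 FPKM in the Null pool and 28.6 FPKM in the WT pool, 1.41 times as much in Null. Fos was 81.0% of it in Null and 65.8% in WT. Fosl2, which encodes the longer-lived Fra-2, had 5.13 FPKM in the Null pool and 7.70 FPKM in the WT pool (log2 ratio -0.51), while Fosl1 was near 0 in both. Jun family mRNA exceeded Fos family mRNA 2.65 times in Null and 2.38 times in WT.

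**Figure D2:**
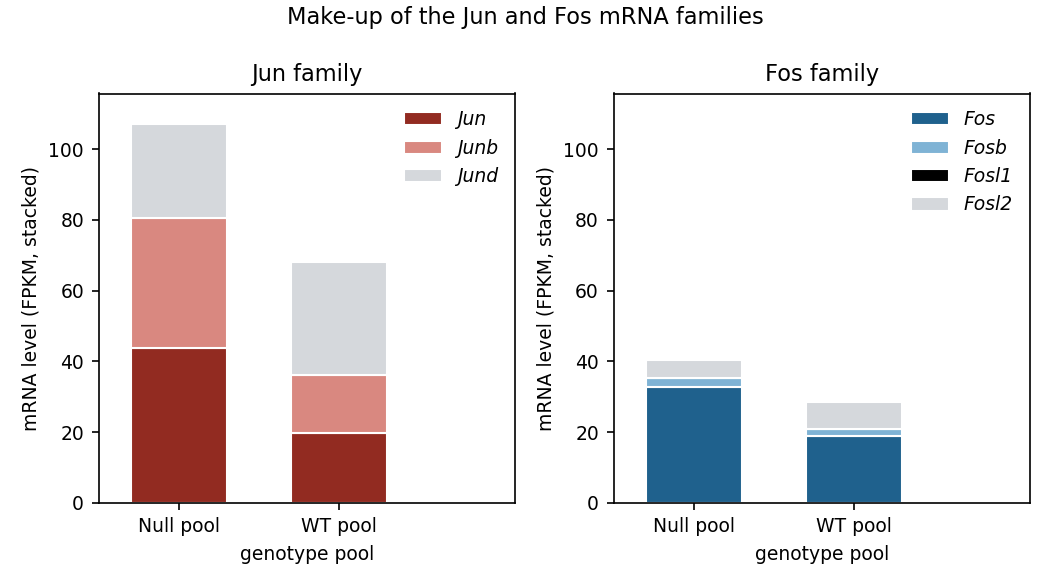
Stacked FPKM of the Jun genes (left panel) and of the Fos genes (right panel) in the Null pool and the WT pool, 1 pooled value per gene and genotype. The Jun stack reaches 107 FPKM in Null and 68.1 FPKM in WT, with the Jund segment taking 24.7% of it in Null and 47.0% in WT.

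Other genes of the rapid response were compared by list. Among 14 other bZIP factors that can pair with AP-1 subunits, 12 passed the filter, with a median log2 ratio of -0.16. By 2-fold or more 1 was higher in Null and 0 were lower, against 2.17% and 1.65% of all genes. Batf3, a factor of dendritic cell development, had 2.68 FPKM in Null and 0.823 FPKM in WT (log2 ratio 1.02), and it is also the gene next to Atf3. Its relative Batf2 had 1.40 FPKM in Null and 0.646 FPKM in WT, 2.17 times WT but 0.54 on the FPKM + 1 scale. Batf, below the filter, had 0.750 FPKM in Null and 0.272 FPKM in WT. The small Maf genes went the other way, with Maff at 7.85 FPKM in Null and 16.7 FPKM in WT (0.471 times WT, and just short of 2-fold on the FPKM + 1 scale) and Mafg at 10.9 FPKM in Null and 18.9 FPKM in WT (-0.74).

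Few of the EGR and NR4A relatives, nuclear factors induced by the same signals, could be measured. Of 8 listed genes, which include the EGR corepressors Nab1 and Nab2, 4 passed the filter. All 4 were higher in Null, 0 of them by 2-fold and 1 by 1.5-fold or more (7.87% of all genes). The orphan receptor Nr4a1 had 17.5 FPKM in Null and 9.36 FPKM in WT (log2 ratio 0.83). Nr4a2, Nab1 and Nab2 had log2 ratios of 0.08, 0.11 and 0.10. Egr2, Egr3 and Nr4a3 were below the filter, and Egr4 was listed at 0 in both pools.

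The largest list held 45 other rapidly induced genes, of which 41 passed the filter. By 2-fold or more 1 was higher and 0 were lower, against 2.17% and 1.65% of all genes. By 1.5-fold or more 10 were higher and 3 lower, against 7.87% and 6.75% of all genes. The median log2 ratio of the list was 0.18. Id2, an inhibitor of helix-loop-helix factors, was the one past 2-fold, with 41.0 FPKM in Null and 17.6 FPKM in WT (1.18). Cyr61, a matrix protein and classical serum-response gene, had 33.8 FPKM in Null and 16.4 FPKM in WT, 2.06 times WT and just short of 2-fold on the FPKM + 1 scale. Zfp36l2, which destabilises AU-rich mRNAs, had 20.1 FPKM in Null and 38.8 FPKM in WT (-0.91).

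Genes induced by cAMP went both ways. Of 14 listed, 11 passed the filter, 5 of them higher and 6 lower in Null. Their median log2 ratio was -0.21. Rgs2, which dampens G protein signalling, was the only one past 2-fold on the FPKM + 1 scale, with 206 FPKM in Null and 51.3 FPKM in WT (1.99). Dio2, the cAMP-induced enzyme that activates thyroid hormone, had 9.05 FPKM in Null and 18.6 FPKM in WT (-0.97, or 0.486 times WT with no pseudocount). Nr4a1, given above at 0.83, had the third largest difference of this list.

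Lists of other forms of stress lay near the centre. Heat shock genes had a median log2 ratio of -0.18 over 6 measured genes, with none past 2-fold and Hsp90aa1, a cytosolic chaperone, at 9.74 FPKM in Null and 16.4 FPKM in WT (-0.69). Hsph1 (-0.30) and Hspa8 (-0.24), also chaperones, came next. Hypoxia-induced genes had a median of 0.08 over 7 genes, with the mitophagy gene Bnip3 at 0.87, Adm, which encodes adrenomedullin, at 0.41 and the prolyl hydroxylase gene Egln3 at -0.31.

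Genes of the integrated stress response, which can induce Atf3, had a median of -0.07 over 9 genes, with the pseudokinase gene Trib3 at 0.91 (10.5 FPKM in Null and 5.12 FPKM in WT, 2.06 times WT with no pseudocount), Sesn2 at -0.51 and the unfolded-protein factor Xbp1 at 0.48. None of these 3 lists had a gene past 2-fold in either direction on the FPKM + 1 scale.

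The kinases and factors upstream of the members differed little. Of 25 listed genes, from Ras, Raf and MAP kinases to SRF, its partners and CREB, 24 were in the table and passed the filter, none was 2-fold different and the median log2 ratio was -0.12. The 3 largest differences were downward: Rps6ka3, which encodes the kinase RSK2 (-0.82), Elk4, an SRF partner (-0.73), and the coactivator gene Crebbp (-0.57). The AU-rich element binding proteins, which shorten or lengthen the life of such mRNAs, had a median of 0.21 over 6 genes, with Zfp36l2 at -0.91, Zfp36l1 at 0.78 and Zfp36, which encodes tristetraprolin, at 0.27.

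Downstream, 17 genes known as AP-1 targets had 13 measured, of which 11 were higher and 2 lower in Null, with 0 past 2-fold in either direction and a median log2 ratio of 0.27. Highest were the chemokine gene Ccl2, with 9.03 FPKM in Null and 5.37 FPKM in WT, Plau, which encodes urokinase, with 10.1 FPKM in Null and 6.09 FPKM in WT, and the matrix protease gene Mmp3, with 3.63 FPKM in Null and 1.97 FPKM in WT. Their log2 ratios were 0.65, 0.65 and 0.64. Several of these genes are also products of macrophages or fibroblasts, whose marker lists differed in the same direction, as given below. Over all measured genes, 5867 were higher and 5730 lower in Null.

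Myc mRNA differed more than its network. Of 11 partners and relatives 8 passed the filter, with a median log2 ratio of -0.26 and none past 2-fold. Mlxipl, which encodes the glucose-sensing factor ChREBP, had 194 FPKM in Null and 312 FPKM in WT (-0.68), Mnt, a Myc antagonist, was at -0.52 and Mlxip at -0.36. The 16 Myc target genes had a median of -0.05, with 7 higher and 9 lower. The transferrin receptor gene Tfrc had 42.3 FPKM in Null and 22.0 FPKM in WT (0.92), Cad, an enzyme of pyrimidine synthesis, was at -0.59 and the nucleolar gene Npm1 at 0.58.

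**Figure D3:**
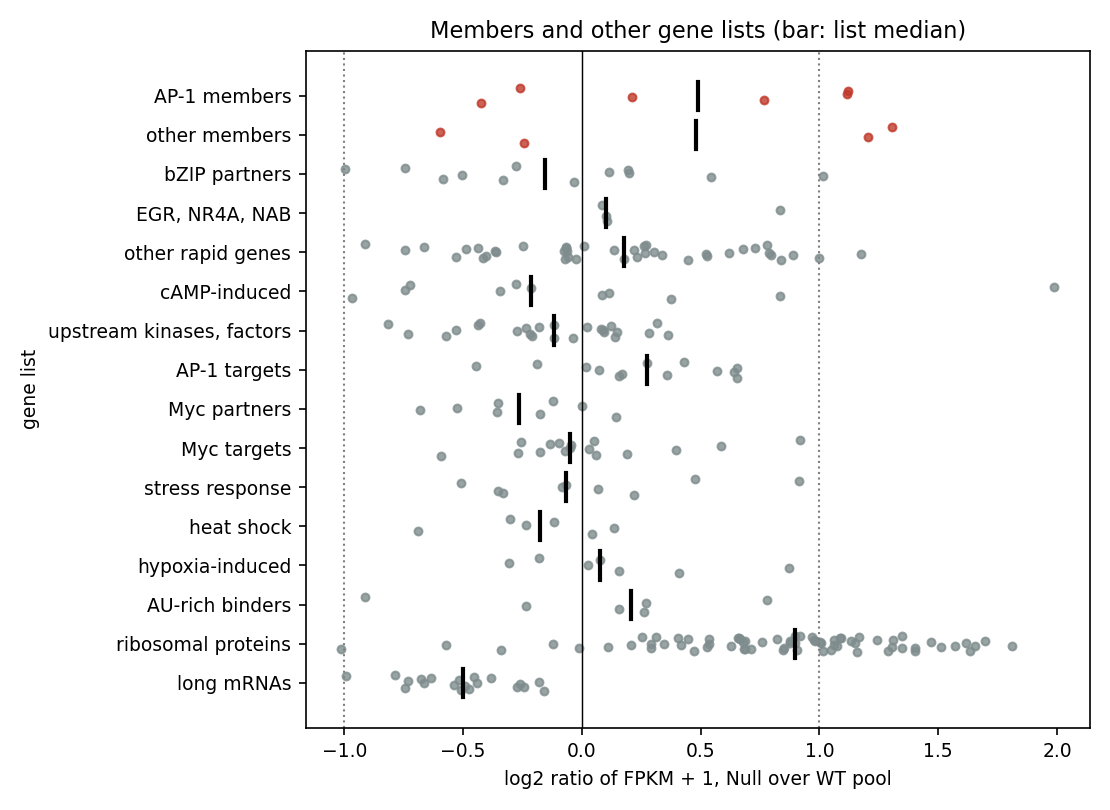
Log2 ratio of FPKM + 1, Null over WT pool, for each measured gene (dots) of the members and of 14 other lists, with a bar at each list median and dotted lines at 2-fold. The member rows span -0.60 to 1.30, ribosomal protein genes centre on 0.90 and long mRNAs on -0.50. The long mRNAs were chosen after the values were seen.

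Other features of the pools also differed between the genotypes, in both directions. Their part in the differences of the members was not tested, and mRNA length was not set against the ratios. Ribosomal protein genes, whose mRNAs are short, had a median log2 ratio of 0.90 over 70 measured genes. By 2-fold or more 29 of them (41.4%) were higher in Null, against 2.17% of all genes. They were taken by symbol, which includes relatives such as Rpl3l. Of the 84 in the table, 14 were below the filter, such as Rpl10 at 0.466 FPKM in Null and 0.664 FPKM in WT. A list of 20 genes with very long mRNAs had a median of -0.50, with 0 higher. That list was chosen after the values were seen, so its uniform direction may come from the choice. The ribosomal protein genes ranged from -1.01 to 1.81. With 2.17% of all genes 2-fold or more higher and 1.65% lower, most genes lie within so wide a range. That the members do too does not liken them to ribosomal protein genes.

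Markers of other cell types also differed, with no defining marker at 0 other than Dbh. The summed level of 8 macrophage markers was 88.3 FPKM in Null and 50.4 FPKM in WT, with 7 of 8 higher, and that of 7 fibroblast markers 410 FPKM in Null and 262 FPKM in WT, with 6 of 7 higher. The 7 endothelial markers summed to 321 FPKM in Null and 254 FPKM in WT (6 of 7 higher), and the 6 mural cell markers to 123 FPKM in Null and 116 FPKM in WT (2 of 6 higher). Granulocyte markers summed to 27.2 FPKM in Null and 13.7 FPKM in WT over 7 genes, of which 3 of 5 measured were higher, and lymphocyte markers to 5.70 FPKM in Null and 1.51 FPKM in WT over 8 genes, of which 1 was measured and higher.

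Red cell markers summed to 469 FPKM in Null and 158 FPKM in WT, with all 4 measured of 6 higher. Skeletal muscle markers stood the other way, with 1160 FPKM in Null and 1931 FPKM in WT and 10 of 10 lower, as did Schwann cell and nerve markers, with 20.2 FPKM in Null and 35.2 FPKM in WT and 2 of 3 measured of 6 lower. In the nerve list, Dbh was listed at 0 in both pools. The 6 general fat cell markers had 3 higher and 3 lower. Immediate early genes can be expressed by most nucleated cells, so the tables do not say which cells carried the difference.

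The genes next to the members on the chromosome were compared to see whether a member's difference was shared locally. Over the 20 nearest measured protein-coding neighbours, one on each side by the RefSeq order on GRCm38.p6, the median log2 ratio was -0.11, with 1 gene 2-fold higher and 0 lower. For Myc, Trib1 was at -0.25 and Asap1 at -0.40. For Ier2, Cacna1a was at -0.17 and Nacc1 at -0.61. For Jun, Mysm1 was at -0.05 and Fggy at -0.17. These 3 members were higher while both neighbours were lower, some of them only slightly. Without spread between mice, such small differences cannot be told from none.

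Junb differed in that its neighbour Prdx2, an abundant peroxiredoxin gene, was higher too, at 250 FPKM in Null and 166 FPKM in WT (0.59), while Hook2 was at 0.05. Beside Fos, the bZIP gene Jdp2 was at 0.20 and Tmed10 at 0.17. For Egr1 and Ier3, both neighbours were lower, as the members were: Kdm3b was at -0.22 and Etf1 at -0.28, and Ddr1 was at -0.79 and Flot1 at -0.36. Beside Atf3, which was lower, Batf3 and Nenf were higher, at 1.02 and 0.55. Beside Fosb, Rtn2 was at -0.67 and Ercc1 at 0.31. Jund lay between Lsm4 at -0.04 and Pde4c at 0.00.

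The row order of the deposited table follows the same ratios in part, so it is not a separate result about the members. It opens with 727 genes ordered by their Null over WT ratio, 331 higher and then 396 lower, and the remaining 21825 genes follow in alphabetical order. The criterion for the opening group is not given in the sources used here. Myc, Ier2, Junb and Jun are in it and the other 6 members are not. The opening group holds 727 of all 22552 genes, and 142 of the 252 genes that were 2-fold or more higher in Null. Fos lies outside it although its ratio without a pseudocount, 0.80 on the log2 scale, is above the smallest upward log2 ratio in the group, 0.71, so the ratio of these columns alone does not define the group. Of the 45 other rapid genes 8 are in it, Id2 among them, as are 1 of the 8 EGR and NR4A genes, Nr4a1, and 1 of the 14 bZIP partners, Maff.

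No member changed direction under any of the 8 ways of computing the ratio in which it was measured, all 8 for 7 members and 7 for Myc, Fosb and Atf3, which are below a mean of 5 FPKM. A change of pseudocount or filter cannot turn the sign of a ratio. Only the scalings to one sum, one median or one distribution could have done so. Scaling both pools to one sum of FPKM, which lowers the median of all genes by 0.19 on the log2 scale, left Myc as the only member past 2-fold. Of all measured genes, 1.27% were 2-fold or more higher in that scaling. Jun was then at 0.91, Junb at 0.91 and Ier2 at 1.00, just short of 2-fold. Relative to the median of all genes in that scaling, Jun, Junb, Ier2 and Myc were higher by 1.09, 1.09, 1.18 and 1.32.

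**Figure D4:**
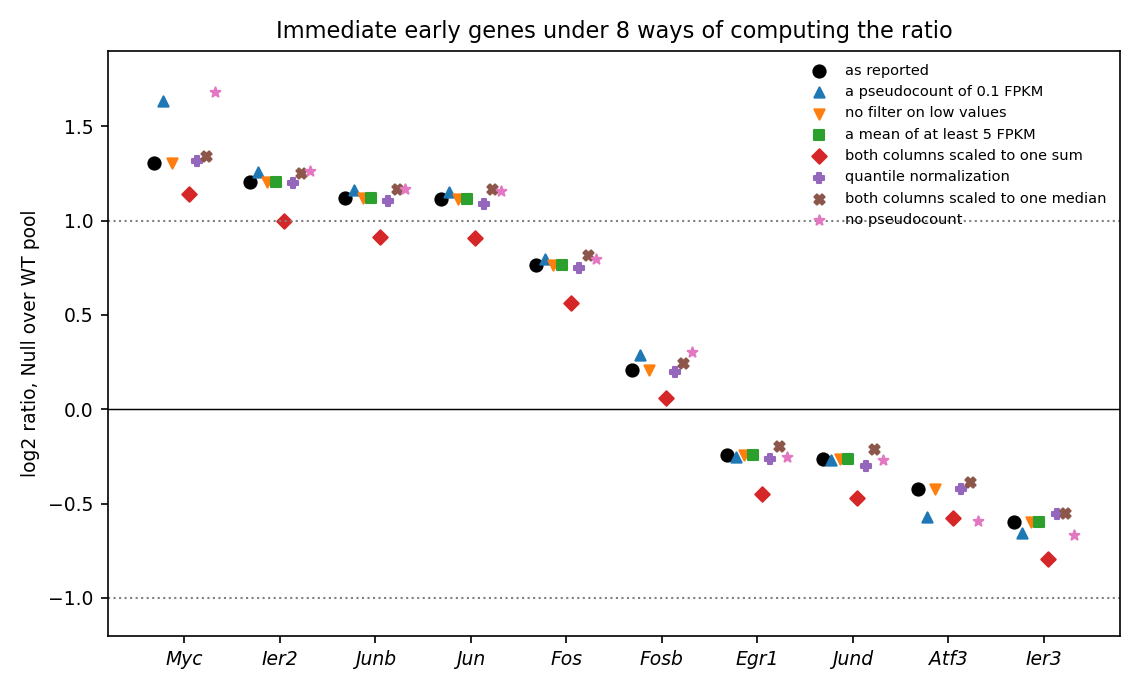
Log2 ratio, Null over WT pool, of each member under up to 8 ways of computing it (7 for Myc, Fosb and Atf3), with one marker shape per way, a solid line at 0 and dotted lines at 2-fold. No marker crosses 0 for any member, and the diamonds of Jun and Junb, for pools scaled to one sum, lie at 0.91, below the upper dotted line. Only the scalings could move a marker across 0.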

How the data were processed

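Per the submitters' processing notes, mm9 was the genome build, and DESeq, edgeR, BWA, TopHat and CASAVA were among the tools. What each tool did, its version, the annotation and any filters are not stated there. The table of 22552 genes that the authors deposited holds FPKM, 1 column for each genotype, so the 3 libraries of a genotype were pooled or averaged before deposit. The columns sum to 590327 FPKM in Null and 508701 FPKM in WT, and 6016 and 5796 genes are listed at 0 in Null and WT. The depth is unknown. The microRNA values, headed RPM, were taken as a signal scaled by the authors, whose sums of 1578515 in Null and 1559381 in WT are not a depth. The authors' p-values and ratios of that table are deposited values that were not used.

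The planned linear model could not be run on pooled columns, so log2 ratios with a pseudocount of 1 FPKM are given where the mean of both pools was 1 FPKM or more, with no test. Alternatives were a pseudocount of 0.1 or none, no filter or 5 FPKM, and scaling to one sum, one median or one distribution. How the ratio behaves with spread between mice was not tested. Members and lists were chosen with earlier results of these data known, and the long mRNA list after the values were seen. All members are named, and in each other list the genes past 2-fold or, where fewer than 3 were, the 3 largest differences. Genes named beyond this rule, such as Fosl2 and the neighbours, were named with values known. Python 3.11.15, pandas 2.3.3 and numpy 2.4.6 were used.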

Additional observations from a re-analysis of the deposited data

How the results depend on the processing

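No member reversed direction under the 7 alternatives to the reported ratio. Only the scalings among them could reverse one, since a change of pseudocount or filter cannot turn the sign. The number of members 2-fold or more higher, 4 as reported, was 1 with both pools scaled to one sum, where the AP-1 members past 2-fold were 0 instead of 2 and the other members 1 instead of 2. With a mean of at least 5 FPKM, 7 members remained and Myc was not measured, which left 1 of the other members past 2-fold. Genes of the other lists past 2-fold numbered 3 higher and 0 lower as reported, 6 higher and 2 lower with a pseudocount of 0.1 FPKM and also with no pseudocount (chosen after seeing the data), and 1 higher and 4 lower with one sum. That scaling moves all ratios down together. The shares of all measured genes past 2-fold moved too. They were 2.17% higher and 1.65% lower as reported, and 3.12% and 2.56% with a pseudocount of 0.1 FPKM. With no pseudocount they were 3.15% and 2.36%, with a mean of at least 5 FPKM 2.41% and 1.74%, and with one sum 1.27% and 2.82%. No paired analysis was possible because the deposited mRNA table has 1 column per genotype, and for the same reason no replicate could be left out. Depth is unknown, so counting error at the 2 to 3 FPKM of Fosb and Atf3 cannot be stated.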

Other observations

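MicroRNAs known to be induced by the same factors were read from the 1 Null and 1 WT microRNA library, and were chosen with the values known. miR-132-3p and miR-212-3p come from one CREB-induced precursor transcript and share their seed, bases 2 to 8, in capitals (RefSeq, GRCm38.p6; chr11:75173723-75173744 and chr11:75173443-75173464, plus strand).
miR-132-3p: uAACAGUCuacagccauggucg
miR-212-3p: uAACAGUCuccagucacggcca
miR-132-3p had 153 RPM in the Null library and 115 RPM in the WT library, and miR-212-3p 18.5 RPM in Null and 13.9 RPM in WT, log2 ratios with a pseudocount of 1 RPM of 0.40 and 0.39. The AP-1-induced miR-21a-5p had 9255 RPM in Null and 7689 RPM in WT (0.27), and miR-155-5p 78.8 RPM in Null and 75.0 RPM in WT (0.07). The median was 0.17 over the 323 microRNAs that averaged 10 RPM or more. With 1 library per genotype there is no replicate check.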
